A study of Mus musculus with 6 samples.

Results

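The choroid plexus is the folded epithelium of the brain ventricles that secretes cerebrospinal fluid, and the retinal pigmented epithelium (RPE) is the pigmented sheet behind the neural retina. Both arise from neuroepithelium, both are polarised layers joined by tight junctions next to leaky capillaries, and both move ions, water, vitamins and hormones between blood and a neural compartment. A set of genes known from the choroid plexus was followed here in developing RPE: the folate receptor *Folr1*, the membrane protein *Tmem72*, the sulfate transporter *Slc13a4*, the lipid-producing enzyme *Enpp2*, the hormone coreceptor *Kl*, the chloride intracellular channel protein *Clic6*, the prolactin receptor *Prlr*, the water channel *Aqp1*, the secreted antagonist *Sostdc1* and the growth factor *Igf2*. They were chosen by name, with earlier results of these data known. A gene was measured by the probe set that the platform's annotation pairs with its symbol and no other, and 8 of the 10 genes have such a probe set, 1 each, of 19938 genes that have one in all. *Prlr* has none there and is named only. *Enpp2* has none there either, and its probe set is known from a deposited table of changed genes, so it is described apart from the other 8 and enters no count or test.

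The study asked how gene expression in the RPE changes after *Pax6* is lost. RPE was dissected from mouse embryos of the C57BL/6J background at embryonic day 15.5, and 300 ng of total RNA per sample was hybridised to Affymetrix Mouse Gene 1.0 ST arrays. There are 3 arrays labelled control (*Pax6loxP/loxP*, the floxed alleles without Cre) and 3 labelled mutant (*Pax6loxP/loxP;DctCre*), and both groups carry the floxed alleles. Control embryos were littermates of the mutant ones. The *Dct* promoter drives Cre in this line, and the exons it removes encode the paired domain, so transcripts and protein without that domain can remain. Each sample is a tube of pooled RPE sorted by how pigmented the tissue was and counted as 1 biological repeat. In such bulk samples, fewer cells of a type and less RNA per cell cannot be told apart.

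The array medians lay between 4.86 and 4.93 on the log2 scale, and arrays correlated with each other at 0.992 to 0.995 over all probe sets, which is across probe sets and not across independent samples. The group names of the arrays are in doubt. In the deposited table of group means, 90 of 100 entries could be matched to an array probe set; 0 of them had both group means within 0.1 of the array means as labelled, and 90 had both within 0.1 once the group names were exchanged. The deleted gene, *Pax6*, was at 9.15, 9.02 and 9.22 on the control-labelled arrays and at 8.998, 8.97 and 8.74 on the mutant-labelled ones. These differ by -0.23 with no overlap, which did not pass the test (standard error 0.09, adjusted p = 0.73, limma). The position of its probes relative to the deleted exons was not looked up, so this level checks the labels only in part. The melanin genes *Tyrp1*, *Tyr* and *Pmel* (the *Si* locus) go the other way from *Pax6* and were higher on the mutant-labelled arrays, by 0.94, 0.67 and 0.68, of which *Tyrp1* alone passed (adjusted p = 0.020, 0.34 and 0.063, limma). The study's separate assays of these genes, by QRT-PCR, *in situ* hybridization and antibodies, run in the direction of its own table and not of the array labels. Every signed value here is labelled mutant minus labelled control, which opposes the direction of the study's own table, and the arrays were not traced to their original samples here.

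The members did not move as a block. *Folr1* and *Tmem72* were higher in the mutant-labelled arrays, by 0.87 and 0.56 on the log2 scale, *Slc13a4* was lower by 0.47, and the other 5 (*Kl*, *Clic6*, *Aqp1*, *Sostdc1* and *Igf2*) did not pass the threshold of an adjusted p of 0.05. Thus 2 of 8 were higher and 1 of 8 lower, where 0.363% of all 23410 named probe sets passed (0.282% higher and 0.0812% lower). The groups did not overlap for those 3 members, against 11% of all named probe sets. The members were chosen with earlier results of these data known, so these shares give context and do not test the set. The median log2 difference of the 8 members was 0.04, and that of all 19938 genes was -0.00. Above 0 lay 5 of the 8 members and 9893 of the 19938 genes.

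**Figure D1:**
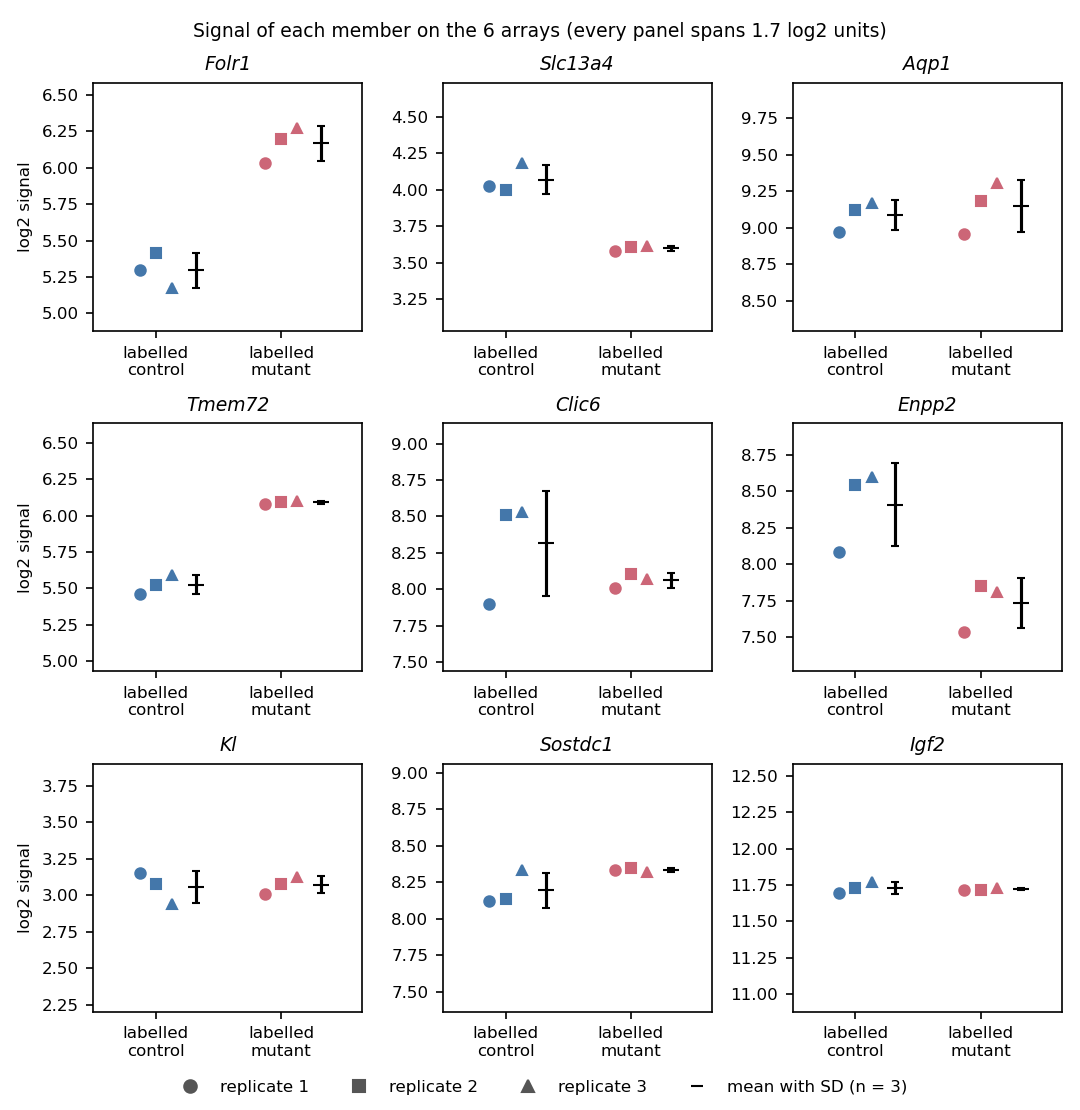
Log2 signal (vertical axis) of the 8 measured members and of *Enpp2* on each of the 6 arrays, in columns for the control-labelled arrays and labelled mutant; marker shapes are replicate numbers, and the dash with a bar is the mean with SD over 3 arrays. Every panel spans the same number of log2 units, and the groups separate for *Folr1*, *Tmem72*, *Slc13a4* and *Enpp2*, while *Clic6*, *Aqp1*, *Sostdc1*, *Kl* and *Igf2* overlap.

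*Folr1* encodes folate receptor alpha, a lipid-anchored receptor that takes folate into cells and carries it across the choroid plexus. Its log2 signal was 5.30, 5.41 and 5.18 on the control-labelled arrays and 6.03, 6.19 and 6.27 on the mutant-labelled ones. All 3 mutant-labelled arrays lay above all 3 control-labelled ones, and the gap between the groups was wider than the range within either. The difference was 0.87 (standard error 0.09, 95% confidence interval 0.67 to 1.07), or 1.83-fold, with an adjusted p of 0.0072 from limma. *Folr1* was the single measured member past the study's own criterion, an unadjusted p under 0.05 with a fold of at least 1.5. Here and below, the p used for that criterion was limma's. The criterion was met by 0.427% of named probe sets (0.308% higher and 0.12% lower), and by 0 measured members in the lower direction. In the study's own table the mean of *Folr1* is 6.17 under the name control and 5.31 under the name knockout. That direction is the opposite of the one by array label. Without mutant replicate 2 the adjusted p was 0.058, and with any other array left out it remained under 0.05. With unnamed probe sets tested too it was 0.044 (limma), just under the threshold.

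*Tmem72* encodes a membrane protein, enriched in choroid plexus and kidney, whose function is little known. It was at 5.46, 5.52 and 5.59 on the control-labelled arrays and at 6.08, 6.09 and 6.10 on the mutant-labelled ones. The groups did not overlap, and the mutant-labelled arrays were almost level with each other. The difference was 0.56 (standard error 0.06, 95% confidence interval 0.43 to 0.70), or 1.48-fold, with an adjusted p of 0.0076 from limma. The adjusted p was 0.065 without mutant replicate 2 and 0.056 without mutant replicate 3. With unnamed probe sets tested too it was 0.044 (limma), just under the threshold.

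*Slc13a4* encodes a sodium-coupled sulfate transporter. Its log2 signal was 4.02, 4.001 and 4.18 on the control-labelled arrays and 3.58, 3.60 and 3.61 on the mutant-labelled ones. Here the order was the opposite, with every array labelled control above every array labelled mutant. The difference was -0.47 (standard error 0.07, 95% confidence interval -0.62 to -0.32), a signal 1.39-fold higher in the control-labelled arrays, with an adjusted p of 0.032 from limma. This probe set is dim, below the median of its array on 6 of 6 arrays, and the call is the least firm of the 3. It was lost when any 1 array was left out (adjusted p from 0.061 to 0.173) and when unnamed probe sets were tested too (adjusted p = 0.129).

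The promoters of the called members are shown because these are the genes that moved. RefSeq windows from GRCm38.p6, 250 bases before to 50 after an annotated start, were matched for 6 of the 10 genes, in 11 windows, and *Folr1*, *Enpp2*, *Clic6* and *Sostdc1* had no entry. The window of *Tmem72* is chr6:116716709-116717008 and that of *Slc13a4* is chr6:35308077-35308376, both on the minus strand and given 5′ to 3′, with the bases from the start onward in capitals.
Tmem72: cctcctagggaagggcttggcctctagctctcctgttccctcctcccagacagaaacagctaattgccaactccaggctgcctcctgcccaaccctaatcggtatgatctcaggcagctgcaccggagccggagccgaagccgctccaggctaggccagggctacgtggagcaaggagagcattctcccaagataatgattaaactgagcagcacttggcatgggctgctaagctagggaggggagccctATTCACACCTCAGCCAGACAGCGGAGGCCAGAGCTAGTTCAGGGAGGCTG
Slc13a4: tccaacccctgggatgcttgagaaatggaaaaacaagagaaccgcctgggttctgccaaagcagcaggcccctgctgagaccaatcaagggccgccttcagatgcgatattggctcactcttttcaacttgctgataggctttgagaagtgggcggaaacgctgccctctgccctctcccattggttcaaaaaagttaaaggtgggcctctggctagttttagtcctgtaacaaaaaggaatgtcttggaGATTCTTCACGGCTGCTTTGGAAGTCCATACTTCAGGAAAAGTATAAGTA
Both strands of each window were searched for 4 motifs that do not overlap one another: the E-boxes CACGTG and CATGTG, which MITF binds, TAATCC, which OTX factors bind, and TTCACGC of the PAX6 paired domain. None of these letters occurs in the *Tmem72* or the *Slc13a4* window. Among the 11 windows, 2 held a match, CATGTG in a *Prlr* window and TAATCC in an *Igf2* window. Of 32851 promoters of this length in the table, 7.15% held CACGTG, 14.2% CATGTG, 7.06% TAATCC and 1.26% TTCACGC.

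The genes next to the called members on the chromosome were looked at as well, a choice made after the values were seen. For *Folr1* these were *Inppl1*, *Folr2*, *Anapc15* and *Lamtor1*, for *Tmem72* *Rassf4*, *Depp1*, *Cxcl12* and *Zfp637*, and for *Slc13a4* *Nup205*, *1810058I24Rik*, *Fam180a* and *Mtpn*. None of these 12 neighbours passed the threshold, and their log2 differences ran from -0.12 for *Fam180a* to 0.10 for *Lamtor1*. *Folr2*, the paralog that lies beside *Folr1* and encodes folate receptor beta, differed by -0.01 (95% confidence interval -0.19 to 0.17).

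*Enpp2* encodes autotaxin, the secreted enzyme that makes lysophosphatidic acid, and is a known product of both choroid plexus and pigment epithelium. Its probe set was at 8.08, 8.55 and 8.60 on the control-labelled arrays and at 7.54, 7.85 and 7.81 on the mutant-labelled ones. All mutant-labelled arrays lay below all control-labelled ones. The means were 8.41 ± 0.29 and 7.73 ± 0.17 (SD, n = 3), a log2 difference of -0.68, or a signal 1.60-fold higher in the control-labelled arrays. Because the pairing of this probe set with *Enpp2* comes from a table that lists only genes past a threshold in this same comparison, the difference is given as a description, with no test. Of the 100 probe sets in that table, 8, that of *Enpp2* among them, are not in the platform's annotation, and 83 of the other 92 carry the same symbol in both.

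*Clic6*, a member of the chloride intracellular channel family, was the member that passed only when 1 array was left out. It was at 7.90, 8.51 and 8.53 on the control-labelled arrays and at 8.01, 8.11 and 8.07 on the mutant-labelled ones. Control replicate 1 lay below all 3 mutant-labelled arrays and the other 2 control-labelled arrays lay above them, so the groups overlap. The difference was -0.25 (95% confidence interval -0.62 to 0.11, adjusted p = 0.93, limma), and without control replicate 1 it was -0.46 with an adjusted p of 0.048.

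Control replicate 1 also had the lowest signal of its group for *Enpp2*, *Tmem72*, *Aqp1*, *Sostdc1* and *Igf2*, and the highest for *Kl*. The summed linear signal of 12 neural retina markers was 1910 on that array, against 585 and 1168 on the other control-labelled arrays and 1521, 1106 and 520 on the mutant-labelled ones. Control replicate 1 also had the lowest RPE marker sum of its group (3775, against 4905 and 4948) and the lowest endothelium sum (2261, against 3023 and 2673). Its sums for periocular mesenchyme, ciliary margin, melanocytes and choroid plexus fate were the lowest of the group too, and that for surface epithelium was the highest. The part of these shifts in the members' values was not tested.

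*Sostdc1*, a secreted antagonist of BMP and Wnt signalling, was at 8.12, 8.13 and 8.33 on the control-labelled arrays and at 8.33, 8.35 and 8.32 on the mutant-labelled ones. Control replicate 3 lay among the mutant-labelled arrays. The difference was 0.14 (95% confidence interval -0.02 to 0.30, adjusted p = 0.88).

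*Aqp1*, the water channel of the apical choroid plexus membrane, was at 8.97, 9.12 and 9.17 and at 8.96, 9.18 and 9.31 in the same order of arrays. The groups overlapped over most of their range. The difference was 0.06 (95% confidence interval -0.17 to 0.29, adjusted p = 0.99).

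*Igf2*, an imprinted growth factor that the choroid plexus secretes into the cerebrospinal fluid, was at 11.69, 11.73 and 11.77 and at 11.72, 11.71 and 11.73. The mutant-labelled arrays lay within the range of those labelled control. Its interval was the narrowest of the members, from -0.13 to 0.11 around a difference of -0.01 (adjusted p = 0.99).

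*Kl* encodes klotho, the coreceptor of FGF23, and was at 3.15, 3.08 and 2.94 and at 3.01, 3.08 and 3.13, below the array median on 6 of 6 arrays. The groups overlapped. The difference was 0.02 (95% confidence interval -0.15 to 0.18, adjusted p = 0.99), on a probe set too dim to say how much transcript was there.

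**Figure D2:**
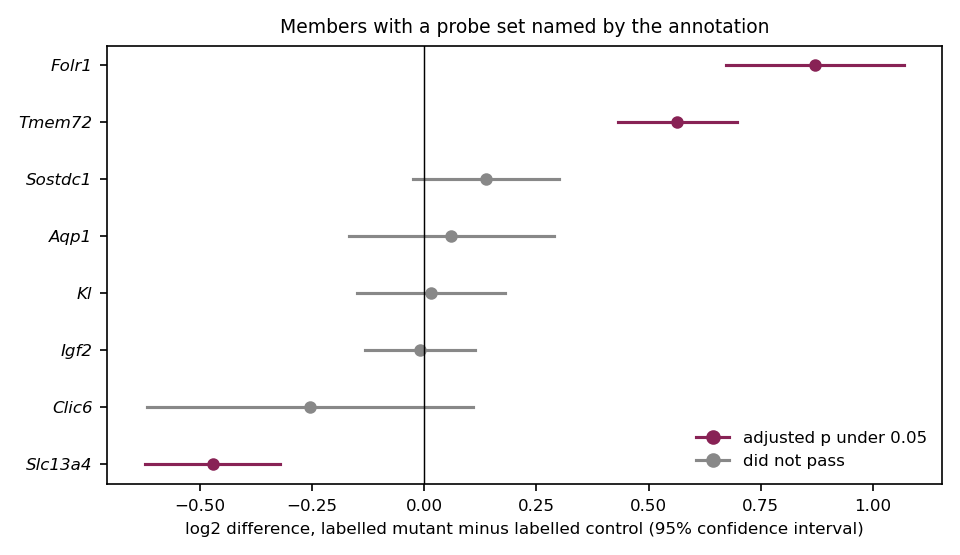
Log2 difference, labelled mutant minus labelled control, with its 95% confidence interval (horizontal axis) for the 8 measured members, ordered by size; coloured points passed an adjusted p of 0.05 and grey points did not. *Folr1* at 0.87 and *Tmem72* at 0.56 lie right of 0 and *Slc13a4* at -0.47 left of it, and the other 5 intervals include 0.

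**Figure D3:**
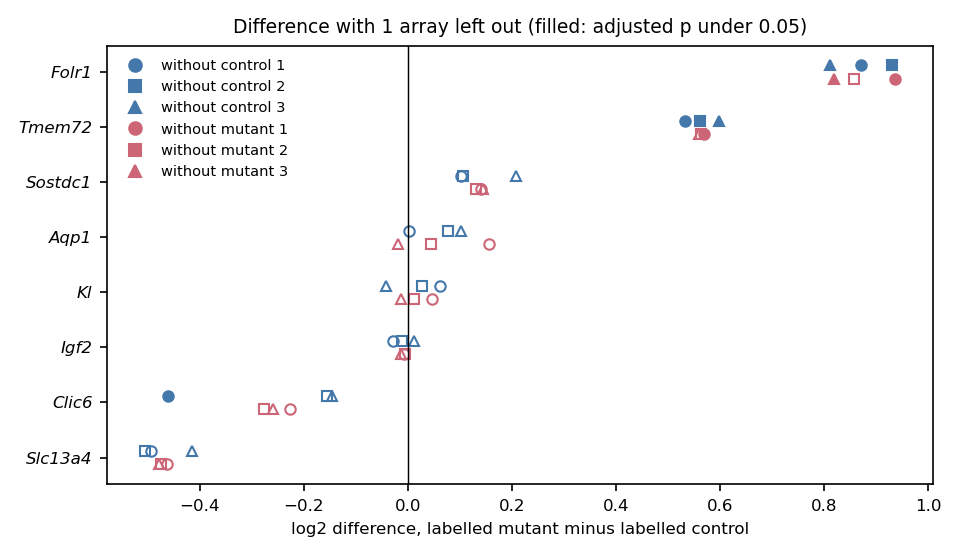
Log2 difference of each of the 8 members (horizontal axis) with each of the 6 arrays left out in turn; filled markers passed an adjusted p of 0.05. The differences of *Folr1* stay between 0.81 and 0.94, those of *Tmem72* between 0.53 and 0.60 and those of *Slc13a4* between -0.51 and -0.41, while *Clic6* runs from -0.46 to -0.14.

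Which genes behaved most like the called members was described by the root mean square difference between their deviations from the 6-array mean. For *Folr1* the closest were *Wnt2b*, a secreted Wnt ligand, at 0.10, *Mgll*, the monoacylglycerol lipase, at 0.11, and *Rab3b*, a small GTPase of vesicle release, at 0.11. *Wnt2b* was at 7.16, 7.13 and 7.09 on the control-labelled arrays and at 7.83, 7.85 and 7.93 on the mutant-labelled ones, 0.74 higher with no overlap and less spread within the groups than *Folr1*. The study reported *Wnt2b* as reduced in the mutant RPE, the opposite of the direction by array label. Genes picked for likeness to a called member tend to separate the groups by that choice, so their separation is no further result. For *Slc13a4* the closest were *Atp2b2*, a plasma membrane calcium pump, at 0.05, *Lrrtm3*, a synaptic adhesion protein, at 0.05, and *Lurap1l* at 0.06. Their log2 differences were -0.39, -0.51 and -0.37, and none of these 3 passed the threshold (adjusted p from 0.071 to 0.079).

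The members' families and partner pathways were counted beside the 0.363% of all named probe sets that passed and the 6.07% at an unadjusted p under 0.05. Of 15 measured genes of folate uptake and folate metabolism, 0 passed (limma; 1 at an unadjusted p under 0.05), with a median log2 difference of 0.04. The reduced folate carrier *Slc19a1* differed by -0.14 (adjusted p = 0.88) and the proton-coupled carrier *Slc46a1* by 0.04 (adjusted p = 0.99). *Aldh1l1*, a cytosolic folate dehydrogenase, was at 4.71, 4.98 and 4.91 and at 5.32, 5.21 and 5.28, a difference of 0.40 with an adjusted p of 0.15. Its groups did not overlap, but it did not pass.

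Anion transporters of the SLC13 and SLC26 families and the sulfate-activating enzymes *Papss1* and *Papss2* made a list of 17 measured genes. The list is not limited to sulfate transport. Of the 17 genes, 0 passed (limma, with 1 at an unadjusted p under 0.05), with a median of 0.02. The smallest p was that of *Slc13a3*, a dicarboxylate transporter, at 5.59, 5.73 and 6.09 on the control-labelled arrays and 5.36, 5.11 and 5.29 on the mutant-labelled ones. Its groups did not overlap, and it differed by -0.54 (adjusted p = 0.28). *Slc26a5*, prestin, differed by -0.15 (adjusted p = 0.85).

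Among 15 genes of the BMP and Wnt pathways on which *Sostdc1* acts, 1 was lower (2 at an unadjusted p under 0.05) and 0 higher. This was *Bmp6*, a secreted BMP ligand, at 6.62, 6.79 and 7.02 on the control-labelled arrays and at 6.01, 6.15 and 6.05 on the mutant-labelled ones. The groups were well apart, by -0.74 (standard error 0.10, adjusted p = 0.031, limma), a signal 1.67-fold higher in the control-labelled arrays. The call held without control replicate 1 (adjusted p = 0.016) and was lost without any other array (adjusted p from 0.081 to 0.153) and with unnamed probe sets tested too (0.143). The median of the 15 genes was 0.01.

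Of 4 *Clic* family genes other than *Clic6*, 0 passed (limma; 1 at an unadjusted p under 0.05). *Clic3* was at 5.10, 4.74 and 4.93 on the control-labelled arrays and at 5.61, 5.44 and 5.27 on the mutant-labelled ones, 0.52 higher with no overlap and an adjusted p of 0.21, and *Clic5* differed by 0.08 (adjusted p = 0.98). The 11 other aquaporins gave 0 calls as well (limma; 3 at an unadjusted p under 0.05), with *Mip*, the lens water channel, at -0.42 (adjusted p = 0.31) and *Aqp11* at 0.24 (adjusted p = 0.60).

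In the insulin-like growth factor axis, 0 of 16 genes passed (limma; 2 at an unadjusted p under 0.05). *Igfbp7*, a secreted binding protein, was at 8.13, 8.18 and 8.40 and at 8.85, 8.63 and 8.81, 0.53 higher in the mutant-labelled arrays with an adjusted p of 0.094. Its groups did not overlap. *Igfbp4*, another binding protein, differed by 0.14 (adjusted p = 0.75), and the receptors *Igf1r* and *Igf2r* differed by 0.07 and -0.01.

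The remaining pathways gave no call. These were 13 genes of prolactin and growth hormone signalling (1 at an unadjusted p under 0.05 in limma), 13 of the klotho family and FGF23 signalling (2), and 13 of the ENPP family and lysophosphatidic acid signalling (1). Their medians were 0.02, 0.01 and -0.01. The smallest p values belonged to *Socs3* and *Ptpn6*, brakes on JAK-STAT signalling (-0.16 and 0.10), to the vitamin D hydroxylase *Cyp27b1* and the receptor *Fgfr3* (0.15 and -0.17), and to the lipid phosphatase *Plpp2* and the choline phosphodiesterase *Enpp6* (0.14 and -0.13).

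Other genes of the choroid plexus epithelium also went both ways. Of 48 measured, 1 was higher and 2 were lower, beside 0.282% and 0.0812% of all named probe sets, and 45 did not pass, with 18 above 0 and 30 below and a median of -0.05. Groups did not overlap for 8 of the 48, beside 11% of all named probe sets. This list, too, was chosen with earlier results of these data known.

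*Slc4a5*, the sodium bicarbonate cotransporter of the apical choroid plexus membrane, was at 6.90, 7.56 and 7.33 on the control-labelled arrays and at 8.78, 8.85 and 8.78 on the mutant-labelled ones. Every array labelled mutant lay over 1 log2 unit above every array labelled control. The difference was 1.54 (standard error 0.15), or 2.91-fold, with an adjusted p of 0.0061 from limma. It was 0.051 without control replicate 3 and 0.050 without mutant replicate 2, just over the threshold.

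*Car12*, a membrane-bound carbonic anhydrase that supplies bicarbonate at the cell surface, went the other way. It was at 8.16, 8.38 and 8.52 on the control-labelled arrays and at 7.52, 7.18 and 7.35 on the mutant-labelled ones. The groups did not overlap, with a difference of -1.003 (standard error 0.11) and an adjusted p of 0.013 from limma. The adjusted p was between 0.055 and 0.084 without control replicate 2, control replicate 3, mutant replicate 2 or mutant replicate 3.

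*Ttr*, transthyretin, the carrier of thyroid hormone and of retinol-binding protein, was the other lower gene. It was at 10.87, 10.91 and 11.40 on the control-labelled arrays and at 8.94, 8.90 and 9.02 on the mutant-labelled ones. Its difference of -2.10 (standard error 0.13, adjusted p = 8.77e-04, limma) remained past the threshold with any 1 array left out.

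*Htr2c*, a serotonin receptor of the choroid plexus, was at 3.94, 4.28 and 4.23 and at 3.46, 3.60 and 3.51, a difference of -0.62 with no overlap. Its adjusted p was 0.053 in limma, and 0.012 without control replicate 1. The *Htr2c* probe set is dim, below the array median on 6 of 6 arrays. *Cldn2*, a claudin of leaky tight junctions, was at 5.22, 5.83 and 5.83 and at 5.07, 5.02 and 5.23, so that control replicate 1 lay among the mutant-labelled arrays. Its difference was -0.52 (adjusted p = 0.52), and -0.72 with an adjusted p of 0.021 without control replicate 1.

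**Figure D4:**
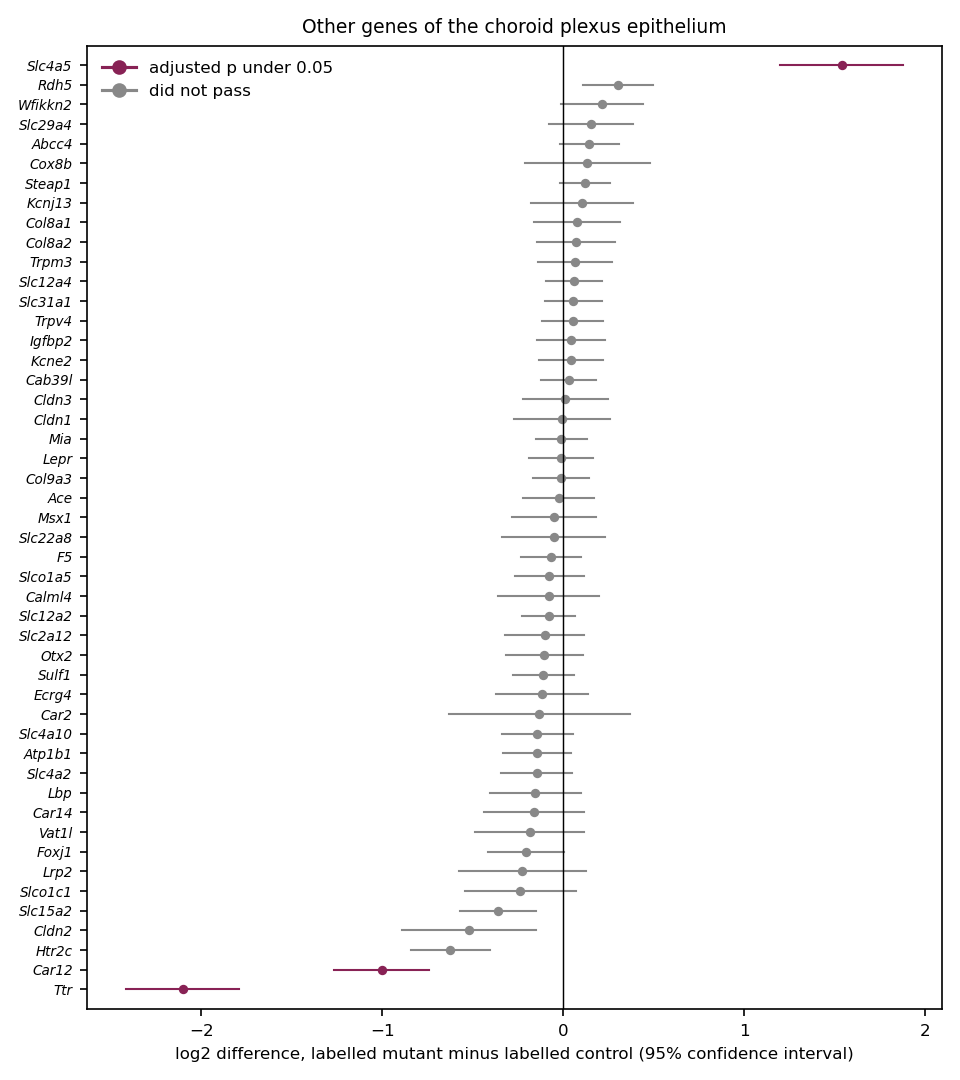
Log2 difference, labelled mutant minus labelled control, with its 95% confidence interval (horizontal axis) for 48 other genes of the choroid plexus epithelium, ordered by size; coloured points passed an adjusted p of 0.05. *Slc4a5* at 1.54 stands at one end and *Ttr* at -2.10 and *Car12* at -1.003 at the other, and the remaining 45 genes did not pass.

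Markers of the tissue and of its neighbours were read beside these results. Of all named probe sets, 0.363% passed, 6.07% were at an unadjusted p under 0.05 in limma, and 11% had groups that did not overlap. Above 0 lay 9893 of the 19938 genes. Of 12 RPE markers, 2 were higher in the mutant-labelled arrays, the retinoid carrier *Rlbp1* by 1.001 and the melanin enzyme *Tyrp1* by 0.94, 0 were lower, and 6 were at an unadjusted p under 0.05. *Rlbp1* was lost without mutant replicate 2, mutant replicate 3 or control replicate 3 (adjusted p from 0.060 to 0.090) and *Tyrp1* without mutant replicate 2, mutant replicate 3 or control replicate 2 (0.069 to 0.124), and both with unnamed probe sets tested too (0.066 and 0.104). The RPE markers' summed linear signal was 3775 to 4948 on the control-labelled arrays and 6055 to 6625 on the mutant-labelled ones, with no overlap. That sum weighs its brightest genes most, the melanin genes *Dct*, *Pmel* and *Tyrp1* (6-array means of 10.51, 10.48 and 9.97). *Otx2*, *Rpe65*, *Best1* and *Lrat* differed by -0.10, 0.00, 0.01 and -0.04 and did not pass. Above 0 lay 10 of the 12 RPE markers. Some of them, *Rpe65*, *Best1* and *Lrat* included, were dim, below the array median on 6 of 6 arrays. Of 10 surface epithelium markers, 1 passed (*Dsg3*, a desmosomal cadherin, higher by 0.68), 7 were at an unadjusted p under 0.05, 7 did not overlap and 10 lay above 0, with sums of 2933 to 3559 and 3864 to 4926. *Dsg3* was lost when any 1 array was left out (adjusted p from 0.071 to 0.145) and with unnamed probe sets tested too (0.148). The keratins *Krt6a* and *Krt12*, the transcription factor *Bnc1*, *Serpinb3a* and *Krtdap* met the study's criterion without passing the adjusted threshold (log2 differences of 1.11, 1.09, 0.75, 0.89 and 0.63). Of 10 ciliary margin markers, 0 passed (limma; 2 at an unadjusted p under 0.05), with sums of 4017 to 4373 and 3867 to 3899, and *Mab21l2* and *Zic1*, regulators of eye development and of neural progenitors, met that criterion at -0.73 and -0.70 (adjusted p = 0.25 and 0.26). These 3 sums moved with the groups, the first 2 in the direction of *Folr1* and *Tmem72* and the last in that of *Slc13a4*, and their part in the members' differences was not tested.

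Genes listed as markers of choroid plexus fate gave no call, and their summed signal overlapped between the groups. This list is not separate from the 48 other choroid plexus genes above. *Foxj1*, *Kcne2*, *Calml4*, *Wfikkn2*, *F5* and *Slco1c1* are in both, by the same probe sets. Of 10 measured, 0 passed (limma; 0 at an unadjusted p under 0.05), 2 lay above 0 and 8 below. Their summed signal was 401 to 443 on the control-labelled arrays and 407 to 445 on the mutant-labelled ones. *Deup1*, of centriole amplification, differed by -0.15 (adjusted p = 0.83), *Foxj1*, the regulator of motile cilia, by -0.20 (adjusted p = 0.84), and *Kcne2*, a potassium channel subunit, by 0.04 (adjusted p = 0.99). *Deup1*, *Foxj1* and *Kcne2* were among those below the array median on 6 of 6 arrays, so the lack of calls rests in part on dim probe sets. Markers of endothelium (10), periocular mesenchyme (12), neural retina (12), lens (12), melanocytes (9) and red blood cells (4) gave 0 calls, with 0, 1, 0, 3, 0 and 0 genes at an unadjusted p under 0.05 in limma. The lens sum was 673, 654 and 781 on the control-labelled arrays and uneven on the mutant-labelled ones, at 997, 657 and 1758. Of the 12 lens genes 11 lay above 0, and of the 12 neural retina genes 11 lay below. The part of this in the members' values was not tested.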

How the data were processed

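Both deposited tables were used. The deposited log2 values cover 35556 probe sets on 6 arrays and were summarized and normalized by the authors. The submitters' processing notes name the software Partek, and its version and settings, the background correction included, are not given in the sources used. In the deposited table of 100 changed genes only the authors' mean log2 values of each group and the gene names were used. It also holds the authors' own p-values, ratio and fold change, which were not used.

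A table of the platform's annotation pairs 23410 probe sets with at least 1 symbol, 21789 with 1 and 1621 with several, and 12146 are unnamed here. For each gene the probe set of 1 symbol with the highest mean stood for it. Mutant-labelled minus control-labelled arrays were fitted in limma 3.58.1 (lmFit, eBayes, no covariates) under R 4.3.3 over the 23410 probe sets, two-sided, with Benjamini-Hochberg adjustment and a threshold of 0.05. The script was tested on simulated data. A difference of log2 values is a log ratio, and a signal is not an absolute amount, so levels were compared within a probe set, or as the summed linear signal of a marker list, between arrays only.

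Each tube was a biological repeat of pooled tissue, and the controls were littermates, but which tubes share a litter is not given, so p-values measure the spread between these tubes. The 3 arrays per group limit the precision. Alternatives were all probe sets, a filter on dim ones, trend and robust variances, array weights, quantile normalization, the replicate number as a block, each array left out, the mean of a gene's probe sets, the methods' two-tailed t-test (unmoderated) and the study's threshold. Named genes are all members, in each list described by its genes up to 4 genes past the threshold by smallest p (otherwise 2, with any past the study's threshold), the 3 most like a called member in each direction, and *Pax6*. Of the marker lists outside RPE, surface epithelium, ciliary margin and choroid plexus fate, counts and some sums are given. *Cldn2*, *Slc46a1*, *Folr2*, *Igf1r*, *Igf2r*, *Foxj1*, *Kcne2*, *Dct*, *Otx2*, *Rpe65*, *Best1*, *Lrat* and the chromosomal neighbours lie outside this naming rule and were picked once their values were known. Some lists share genes, and *Calml4*, *Wfikkn2*, *F5* and *Slco1c1* are named only for that. The members and lists were chosen with earlier results of these data known.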

Additional observations from a re-analysis of the deposited data

How the results depend on the processing

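The members' log2 differences kept their sign under every alternative run for *Folr1*, *Tmem72*, *Slc13a4*, *Clic6* and *Sostdc1*. The signs that turned were those of genes near 0: with 1 array left out, *Kl* ran from -0.043 (without control replicate 3) to 0.063, and was also below 0 without mutant replicate 3, *Aqp1* from -0.019 (without mutant replicate 3) to 0.157, and *Igf2* from -0.028 to 0.012 (without control replicate 3). The count of 2 higher members was 1 at the study's threshold, which *Tmem72* misses on its fold, and 0 to 2 with 1 array left out. The count of 1 lower member was 0 with all probe sets tested, 0 with dim probe sets left out, since that filter removes *Slc13a4*, 0 at the study's threshold and 0 to 1 with 1 array left out, where the 1 is *Clic6* and not *Slc13a4*. With the replicate block the lower members were 0 (*Slc13a4*, adjusted p = 0.070) and the higher remained 2, while *Htr2c* passed (adjusted p = 0.038). Same-numbered arrays deviated together with correlations of 0.37, -0.06 and 0.07, which does not establish a pairing by number. The controls were littermates, so shared litters remain possible. The block gave 63 higher and 14 lower probe sets over all that were tested, against 66 and 19. The other choroid plexus genes gave 1 lower call with all probe sets tested, and 0 to 1 higher and 1 to 4 lower calls with 1 array left out. Over all tested probe sets, testing unnamed ones too gave 35 higher and 6 lower, and leaving out 1 array 23 to 54 higher and 3 to 31 lower. The methods' t-test called 0 members, 0 other choroid plexus genes and 0 probe sets in either direction after adjustment, with 3, 6 and 1319 at an unadjusted p under 0.05. The cause of these changes was not tested where none is named. Below the array median on 6 of 6 arrays lay *Slc13a4* and *Kl*, so signal over background limits these most. The filter on dim probe sets had a limit of 5.70, the median of the tested probe sets. *Folr1* and *Tmem72* had control-labelled means of 5.30 and 5.53, below that limit. Their 6-array means of 5.73 and 5.81 lie just above it, by way of the mutant-labelled arrays.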
